A study of Mus musculus with 8 samples.

Results

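The 6 genes described here make, and break down, prostaglandins: Ptgs1 and Ptgs2 (the 2 cyclooxygenases), Ptgds and Hpgds (the 2 prostaglandin D synthases), Ptges3 (p23, also called cytosolic prostaglandin E synthase) and Hpgd (the enzyme that begins prostaglandin inactivation). They were chosen by name, with earlier results of these data known, and are 6 of the 17143 genes of the table. Each was followed per mouse in cell classes defined by marker genes. Hippocampal cells of 8 mice aged 5 months were profiled by 10x Chromium single-cell RNA sequencing, which tags each captured transcript with a unique molecular identifier (UMI). The Pb group held 2 female and 2 male mice whose dams drank water with 32 ppm Pb-acetate from 2 weeks before mating, through gestation and lactation. The control group held 2 females and 2 males of unexposed dams, labelled control diet. All 8 were wildtype (a/a) offspring without Pb in their own water after weaning. A litter gave 1 male and 1 female, but the labels do not tie mice to litters, so the tests treat as independent mice that may share a dam.

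Prostaglandins are short-range lipid signals made from arachidonic acid. A cyclooxygenase turns arachidonic acid into prostaglandin H, and terminal synthases turn that into prostaglandin D, E, F, prostacyclin or thromboxane, which act on G protein-coupled receptors. Ptgs1 is the steady form of cyclooxygenase and Ptgs2 the form induced by inflammation and by neuronal activity. In the brain, Ptgds is known from oligodendrocytes, the meninges and the choroid plexus, where the protein is also secreted into cerebrospinal fluid and carries lipophilic molecules, and Hpgds is known from microglia. Ptges3 is in addition a co-chaperone of Hsp90.

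On GRCm38 with the GENCODE vM21 annotation, which was used for positions only, Ptgds lies on chromosome 2 from 25466709 to 25470046 (minus strand). Ptgs1 lies on the same chromosome from 36230426 to 36252272 (plus), Ptgs2 on chromosome 1 from 150100031 to 150108227 (plus) and Hpgds on chromosome 6 from 65117293 to 65144908 (minus). Ptges3 lies on chromosome 10 from 128058954 to 128077272 (plus) and Hpgd on chromosome 8 from 56294585 to 56321043 (plus). Hpgds and Ptgs1 each overlap 1 annotated gene on the other strand (Gm17147 and Gm43621) and Hpgd overlaps 1 on its own strand (Gm45540). None of these neighbours is in the table. The sources used here do not give whether counting used strand, so reads from these overlaps are uncertain, as are reads shared between Ptges3 and its pseudogene Ptges3-ps.

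After filtering, 5175 cells were kept, 211 to 1157 per mouse, with 1749079 to 8508064 UMIs per mouse. The classes the results turn on are Microglia-like (1291 cells), Oligodendrocyte-like (1276), Endothelial-like (708), Pericyte-like (313) and Astrocyte-like (272) cells, and cluster 12 (622 cells), which carries endothelial markers but is led by hemoglobin genes and is left unnamed. Libraries stood apart in 3 ways that touch the genes: control F1 and control M1 carried most Mbp outside oligodendrocytes, Pb M1 held most Ptgs2, and cluster 22 of the Oligodendrocyte-like class (70 cells) came almost wholly from control M2. Of the cell barcodes, 32 occurred in more than 1 library, in 91 cells, and without them the Ptgds fold changes below moved by less than the spread between mice (log2 0.69 in all cells). Levels are in CPM, the UMIs of a gene per 1000000 UMIs of the class in a mouse, with SDs over mice with at least 10 cells of the class. Since the clusters were made from the same cells, differences between classes are a description with no test; the 6 genes and the rest of the pathway were left out of the genes used to cluster.

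Ptgs1, Hpgds and Hpgd were microglial. Ptgs1 averaged 439 ± 40.5 CPM in Microglia-like cells (SD, n = 8), which held 85.04% of its 3891 UMIs. Hpgds averaged 453 ± 56.7 CPM there, with 87.1% of its 3766 UMIs. Hpgd averaged 375 ± 56.4 CPM, with 85.9% of its 3219 UMIs. In each mouse with both classes the microglial level of all 3 genes lay above that of the class next in order. That class was Astrocyte-like for Ptgs1 (56.8 ± 43.6 CPM, SD, n = 6, with 144 CPM in control F1) and Oligodendrocyte precursor-like for Hpgds (25.5 ± 10.3 CPM, SD, n = 5) and Hpgd (32.5 ± 25.6 CPM, SD, n = 5). Below these the classes overlapped: Hpgds ran from 4.64 to 19.7 CPM, Ptgs1 from 13.9 to 18.9 CPM apart from the precursors at 39.5 ± 17.8 CPM (SD, n = 5), and Hpgd from 8.66 to 20.7 CPM, and the 1 SD ranges of neighbours in the order overlapped.

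A UMI of Hpgds was found in 84.8% of Microglia-like cells (95% Wilson interval 82.8 to 86.7) and in 11.1% of Oligodendrocyte-like cells (9.45 to 12.9), at median depths of 5221 and 6996 UMIs per cell. Thinned to 1000 UMIs per cell, these shares were 35.5% and 1.72%. For Ptgs1 the shares were 83.6% and 10.97%, thinned 32.1% and 1.25%, and for Hpgd 74.1% and 6.66%, thinned 28.1% and 1.02%. Whether the UMIs in oligodendrocytes are expression or RNA from other cells was not tested, and the intervals cover counting error only. The 57 Perivascular macrophage-like cells, summed over mice, were the other class with these genes, at 201 CPM of Hpgds (exact Poisson interval 157 to 254), 210 CPM of Hpgd (164 to 264) and 80.5 CPM of Ptgs1 (53.5 to 116).

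**Figure D1:**
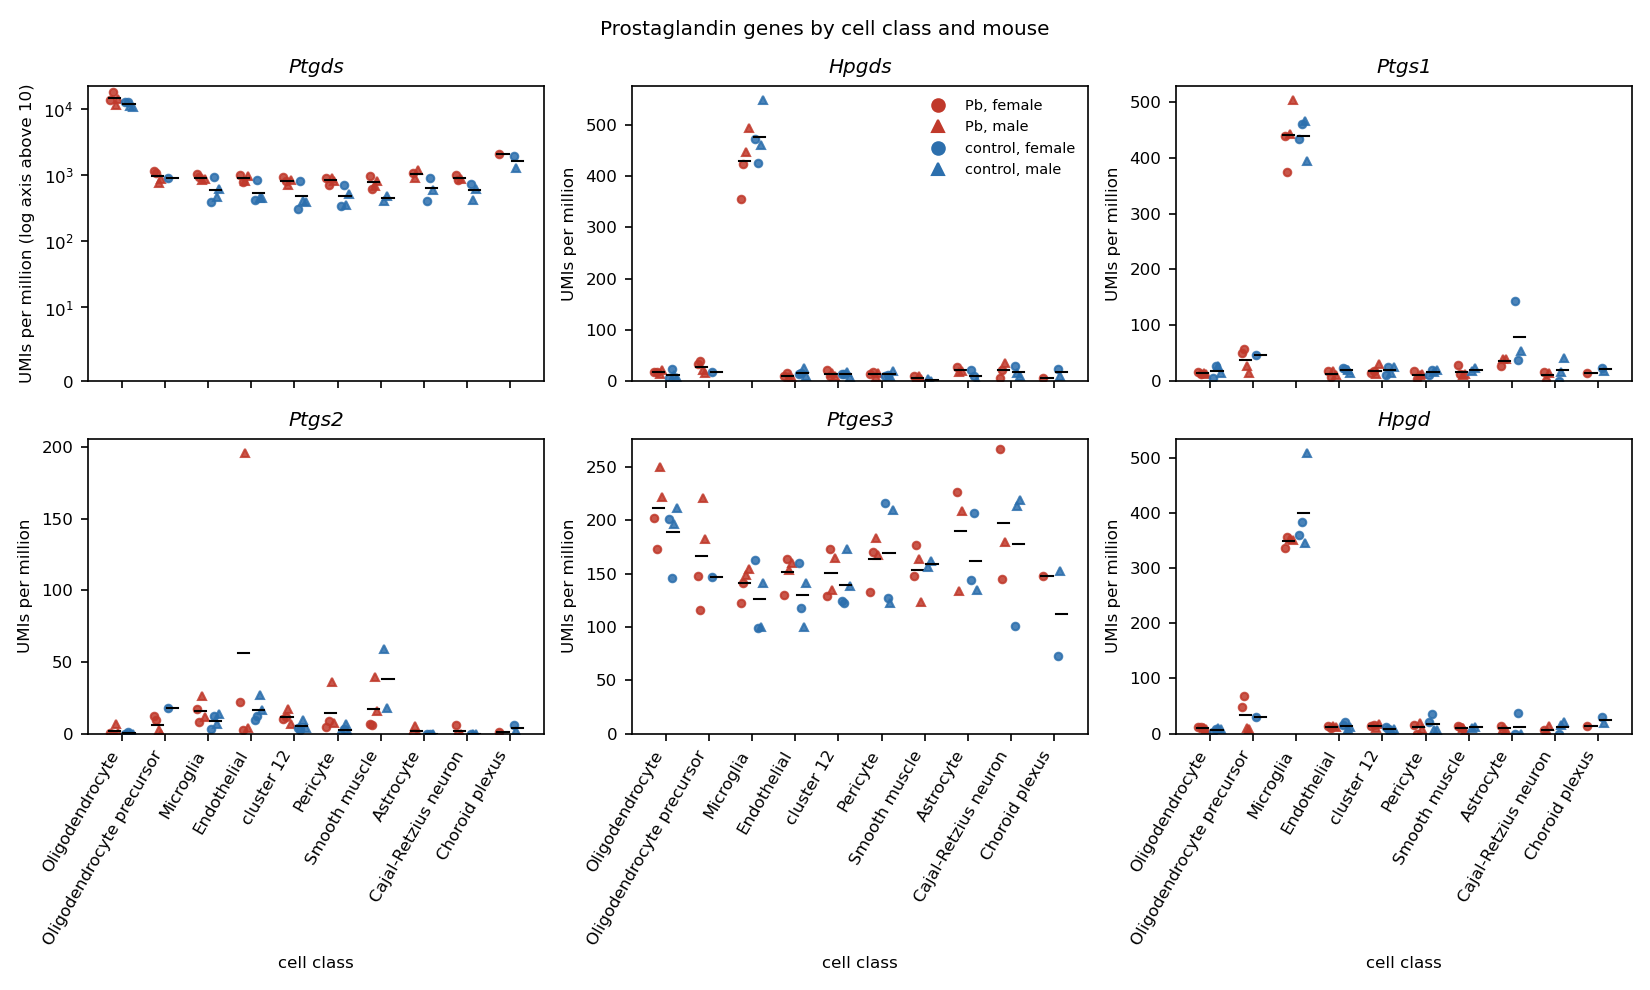
Level of each gene (CPM, vertical axis; log above 10 for Ptgds, linear for the others) in 10 cell classes (horizontal axis). Each point is 1 mouse with at least 10 cells of the class, Pb in red and control in blue, and bars are group means. Hpgds, Ptgs1 and Hpgd stand out in microglia, Ptgds in oligodendrocytes, Ptges3 is present throughout, and 1 Pb male stands apart for Ptgs2 in endothelial cells at 196 CPM.

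Within microglia the 3 genes did not run in parallel across the 4 clusters. Cluster 20, led by the homeostatic genes P2ry13, Cx3cr1 and P2ry12, had the highest Hpgds level, at 687 ± 68.2 CPM (SD, n = 7). Cluster 6, led by Hmox1, had 489 ± 72.2 CPM, cluster 4, led by the inflammatory genes Il1a, Nlrp3 and Tnf, had 383 ± 46.0 CPM, and cluster 5, led by Ctss and Aif1, had 298 ± 82.6 CPM (SD, n = 8 each). Ptgs1 was also highest in cluster 20, at 604 ± 90.3 CPM (SD, n = 7), against 446 ± 39.4, 394 ± 45.6 and 396 ± 109 CPM in clusters 6, 4 and 5 (SD, n = 8 each). Hpgd had another order, with 428 ± 144 CPM in cluster 5, 417 ± 65.1 CPM in cluster 6, 401 ± 53.4 CPM in cluster 20 and 331 ± 95.9 CPM in cluster 4, and these levels overlap. Hpgd is among the leading genes of cluster 5, although it was not used to make the clusters.

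Ptgds was an oligodendrocyte gene with a second, small source. Oligodendrocyte-like cells averaged 13166 ± 2379 CPM (SD, n = 8) and held 79.8% of its 157583 UMIs, 98.5 UMIs per cell on average. Within the class, cluster 1, led by Synpr and Opalin, had 17790.0 ± 1995 CPM (SD, n = 7) and cluster 2, led by Anln and Hapln2, 8702 ± 3672 CPM (SD, n = 8). In each of the 7 mice with both, cluster 1 lay above cluster 2. Ptgds is itself among the genes that mark cluster 1, though it was not used to make it. The 35 Fibroblast-like cells (Dcn, Lum, Col1a1) held 5.23% of all Ptgds UMIs, at 27058 CPM summed over mice (exact Poisson interval 26477 to 27649), and 1 of these cells had 1289 UMIs of the gene. Pb M1 gave 5475 of these 8246 UMIs, and without it the level was 14088 CPM (13569 to 14623). In control M2, 3 such cells had 8 UMIs. Choroid plexus-like cells had 2098 CPM in Pb F1, the one Pb mouse with at least 10 such cells, and 1962 and 1268 CPM in control F2 and control M2.

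Ptgds UMIs were found in the other classes too. Across 5 to 8 of them per mouse (Microglia-, Endothelial-, Pericyte-, Astrocyte-, Smooth muscle-, Cajal-Retzius neuron- and Oligodendrocyte precursor-like cells and cluster 12), Ptgds ran from 909 to 1170 CPM in Pb F1, 619 to 1061 CPM in Pb F2, 689 to 915 CPM in Pb M1 and 829 to 1182 CPM in Pb M2. In the control mice it ran from 310 to 426 CPM (F1), 710 to 927 CPM (F2), 350 to 461 CPM (M1) and 394 to 616 CPM (M2). The 4 Pb mice and control F2 were high, control F1 and control M1 were low in all their classes, and control M2 overlapped their range and reached above it. A Ptgds UMI was found in 96.5% of Microglia-like cells (thinned 58.6%) and in 92.4% of Endothelial-like cells (thinned 49.3%), against 99.8% of Oligodendrocyte-like cells (thinned 96.0%). Classes too small for most mice were not in these ranges: Perivascular macrophage-like cells had 1187 CPM in Pb F1 and 1083 CPM in Pb M1, above the ranges of those mice, and the 25 Newly formed oligodendrocyte-like cells had 1512 CPM summed over mice (exact Poisson interval 1338 to 1702).

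These UMIs were set against those of 4 myelin genes (Mbp, Mobp, Mag, Mog), all in the marker set of oligodendrocytes used here. Whether the other classes, oligodendrocyte precursors among them, express any of these genes was not tested. Outside oligodendrocytes Ptgds numbered 31.8 ± 2.34 per 100 myelin UMIs in Pb F1 (SD over 8 classes), 17.1 ± 1.37 in Pb F2 (7 classes), 35.8 ± 2.26 in Pb M1 (7) and 33.8 ± 3.39 in Pb M2 (8). In the control mice the ratio was 5.57 ± 0.526 (F1, 5 classes), 34.7 ± 2.99 (F2, 7 classes), 5.88 ± 0.486 (M1, 6 classes) and 19.7 ± 2.02 (M2, 7 classes). The ratio thus varied less among the classes of a mouse than between mice. No profile of free RNA was at hand, so whether these Ptgds UMIs are free RNA or expression by the classes was not tested. In Oligodendrocyte-like cells the ratio was 70.04, 98.4, 65.3 and 77.1 in Pb F1, F2, M1 and M2 and 56.8, 64.8, 48.4 and 68.4 in control F1, F2, M1 and M2. In all 8 mice the mean ratio outside oligodendrocytes lay below that of the mouse's own oligodendrocytes, proportionally the most in control F1 and control M1, and the part of this in the Ptgds values was not tested.

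**Figure D2:**
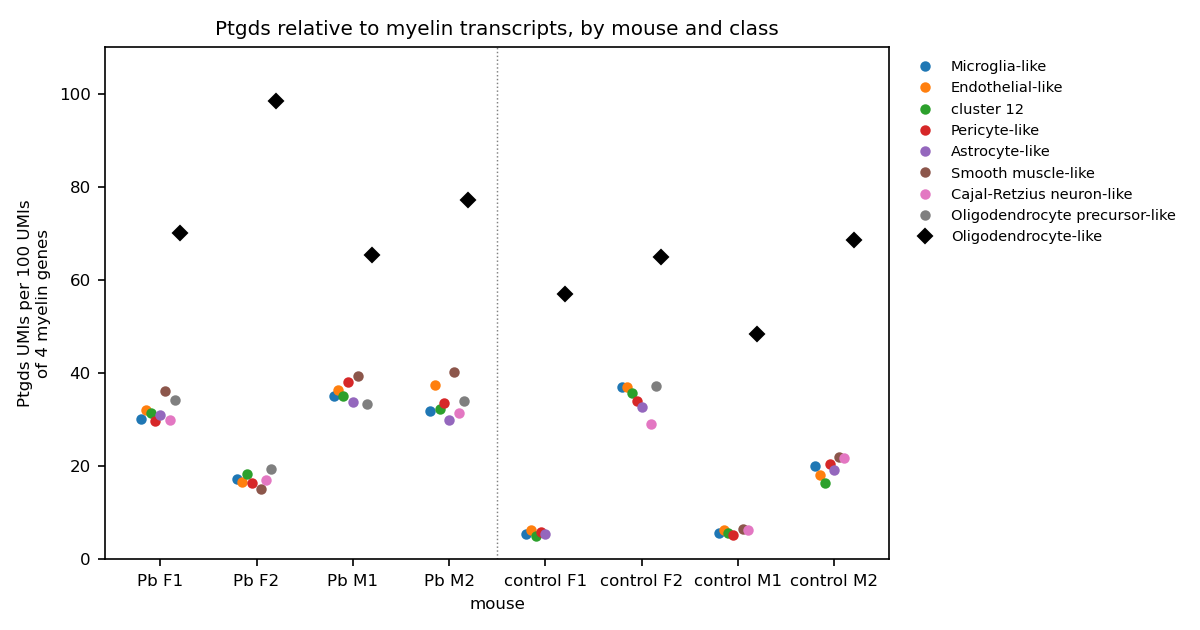
Ptgds UMIs per 100 UMIs of 4 myelin genes (vertical axis) in each mouse (horizontal axis, Pb to the left). Coloured points are classes other than oligodendrocytes and black diamonds the Oligodendrocyte-like class. Classes of 1 mouse lie together, and those of control F1 and control M1 lie between 4.89 and 6.397, far below their diamonds at 56.8 and 48.4.

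The 4 myelin genes did not behave alike outside oligodendrocytes. In Microglia-like cells Mbp stood at 2351, 4042, 1756 and 1941 CPM in Pb F1, F2, M1 and M2, and at 5809, 1739, 6438 and 2364 CPM in control F1, F2, M1 and M2. Mag, singled out after the values were seen, stood at 236.5, 109.7, 129 and 166 CPM in the same Pb mice and at 106, 157, 125 and 110.4 CPM in the same control mice. Control F1 and control M1 thus had most Mbp but not most Mag. Counted per 100 Mag UMIs, Ptgds in microglia numbered 435, 844, 651 and 534 in Pb F1, F2, M1 and M2 and 373, 589.5, 367 and 554 in control F1, F2, M1 and M2, so the groups overlapped and the gap to control F1 and M1 was smaller than against the myelin sum. In Oligodendrocyte-like cells Ptgds per 100 Mag UMIs was 459, 726, 448 and 576 in the same Pb mice and 525, 456, 385 and 460.4 in the same control mice. In Endothelial-like cells it was above that in all 8 mice, at 423 to 986. Per 100 Mog UMIs Ptgds was higher in Microglia-like than in Oligodendrocyte-like cells in all 8 mice, with 652 to 1461 in microglia and 552 to 1131 in oligodendrocytes.

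Whether Pb exposure went with another Ptgds level was asked first in all cells of a mouse. Ptgds stood at 5046, 5117, 4372 and 5144 CPM in Pb F1, F2, M1 and M2, against 2785, 3622, 2698 and 2605 CPM in control F1, F2, M1 and M2. The lowest Pb mouse was above the highest control mouse, with means of 4919.8 ± 367 and 2928 ± 469 CPM (SD, n = 4 each). The log2 fold change in edgeR's fit with sex as a covariate was 0.73 (SE 0.12). Ptgds was the only one of the 6 genes whose groups separated in all cells, and 2.37% of the 12989 genes fitted there had all Pb mice above all control mice. The gene and this contrast were chosen with the result known, so no test of it is given. Across all genes, edgeR's quasi-likelihood test called 0% of the 12989 at an adjusted p under 0.05, with 622 genes at an unadjusted p under 0.05, while DESeq2 called 29 genes, 28 of them higher in Pb mice, and limma-voom 0.

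A sum over all cells moves with the number of cells of a type and with the RNA per cell, which it cannot tell apart. Oligodendrocyte-like cells made up 30.2%, 22.1%, 23.5% and 28.7% of the cells in Pb F1, F2, M1 and M2, against 19.0%, 20.8%, 20.7% and 19.4% in control F1, F2, M1 and M2. Each Pb mouse was above each control mouse in that share too, and its part in the Ptgds difference was not tested. Of the other classes only B cell-like cells (16 in all) separated by share. They were lower in each Pb mouse, at 0.0923% to 0.237% against 0.272% to 1.05% in control mice. Within Oligodendrocyte-like cells Ptgds stood at 13921, 18177, 11400.4 and 14383 CPM in Pb F1, F2, M1 and M2, against 12704, 12588, 11262 and 10895 CPM in control F1, F2, M1 and M2. Pb F1, F2 and M2 lay above all control mice, and Pb M1 lay below control F1 and F2. Groups separated upward in 1.71% of the genes fitted in the class. The log2 fold change was 0.28 (SE 0.10), smaller than in all cells, and it was 0.17 (SE 0.09) without Pb F2.

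Ptgds was also read in the 2 main oligodendrocyte clusters. In cluster 1 Ptgds stood at 19306, 20134, 15605 and 20084 CPM in Pb F1, F2, M1 and M2, against 17102, 16460.4 and 15838 CPM in control F1, F2 and M1. In cluster 2 it stood at 10264, 14645, 7545 and 11132 CPM in Pb F1, F2, M1 and M2, against 6465, 9138, 8366 and 2062 CPM in control F1, F2, M1 and M2. In both clusters Pb F1, F2 and M2 lay above all control mice with a value. Pb M1 lay below control F1, F2 and M1 in cluster 1, where control M2 had no value. In cluster 2 it lay below control F2 and M1 and above control F1 and M2. Cluster 22, the 70 cells almost all of control M2, had 13047 CPM in that mouse.

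**Figure D3:**
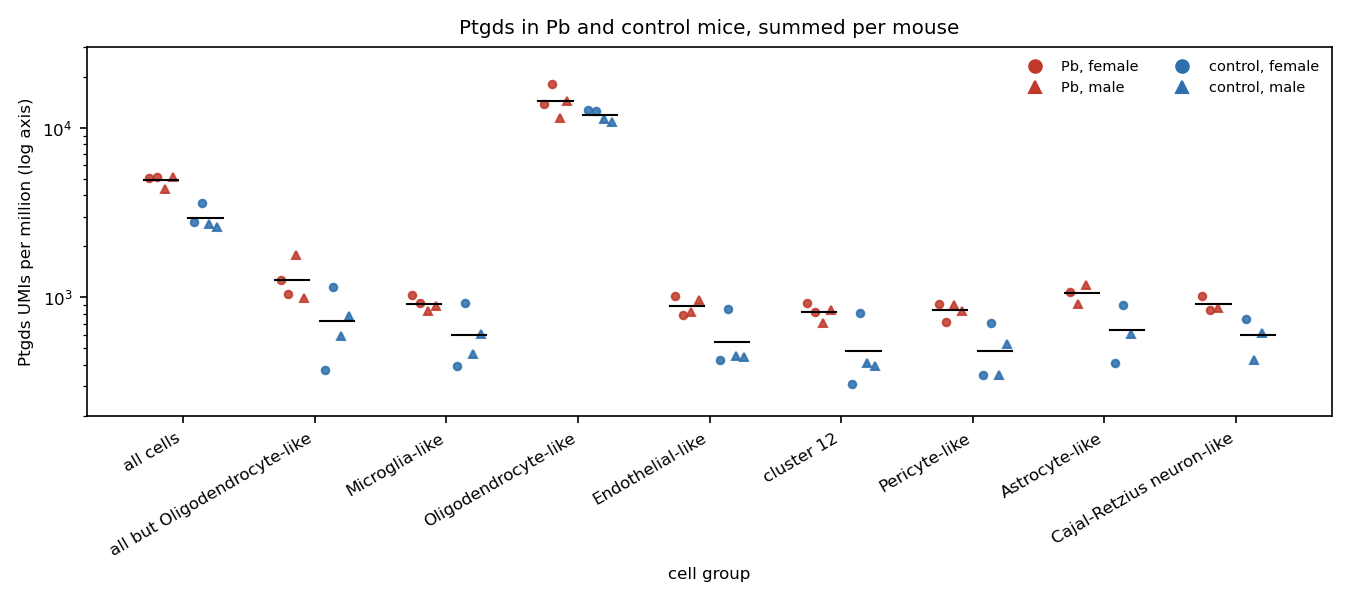
Ptgds level (CPM, log axis) per mouse in all cells, all cells but oligodendrocytes, and 7 classes. Pb mice are red and left, control mice blue and right, circles females and triangles males, and bars are group means. The groups separate in all cells (4372 to 5144 against 2605 to 3622) and overlap in oligodendrocytes (11400.4 to 18177 against 10895 to 12704).

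Outside oligodendrocytes the log2 fold change of Ptgds was 0.63 (SE 0.19) in Microglia-like cells, 0.72 (SE 0.17) in Endothelial-like cells and 0.76 (SE 0.20) in cluster 12. It was 0.79 (SE 0.19) in Pericyte-like, 0.68 (SE 0.25) in Astrocyte-like and 0.50 (SE 0.22) in Cajal-Retzius neuron-like cells, the last 2 with 3 mice per group. In Microglia-like cells the levels were 1029, 926, 837 and 886 CPM in Pb F1, F2, M1 and M2, against 394, 927, 461 and 612 CPM in control F1, F2, M1 and M2. Control F2 lay inside the Pb range there, and in Endothelial-like cells, at 851 CPM, and cluster 12, at 806 CPM. Upward separation was shown by 1.18%, 1.3% and 1.66% of all genes fitted in these 3 groups. In Pericyte-, Astrocyte- and Cajal-Retzius neuron-like cells Ptgds did separate, as did 1.42%, 6.56% and 3.91% of all genes fitted there. Control F2 was the highest control mouse in each and lay just below the lowest Pb mouse in the first 2. It had 709.6 CPM against 711.4 in Pb F2 in pericytes, and 900.6 CPM against 914.6 in Pb M1 in astrocytes. In Cajal-Retzius neuron-like cells it had 748 CPM against 847 in Pb F2. In Astrocyte-like cells edgeR called 0.0358% of genes, 1 gene that was lower in Pb mice and not one of the 6, and in the other 8 cell groups 0%. Without control F2 the log2 fold change was 0.90 (SE 0.17) in microglia, 0.99 (SE 0.14) in endothelium and 1.13 (SE 0.16) in cluster 12, and without control F1 it was 0.47 (SE 0.15), 0.60 (SE 0.17) and 0.58 (SE 0.17). These classes come from the same mice and libraries.

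All cells but oligodendrocytes, as a sum, had 1272, 1045, 1783 and 991 CPM of Ptgds in Pb F1, F2, M1 and M2, against 371, 1147, 591 and 777 CPM in control F1, F2, M1 and M2. The groups overlapped at control F2, with a log2 fold change of 0.79 (SE 0.33), and 1.7% of the genes fitted separated upward. Without control F2 the log2 fold change was 1.19 (SE 0.27). In Pb M1, 11 Fibroblast-like cells gave 54.8% of those UMIs. Leaving that class out lowered Pb M1 to 822 CPM, the Pb mean to 935 ± 150.1 CPM and the control mean to 622 ± 269 CPM (SD, n = 4 each).

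The microglial genes lay within the spread of the mice. Hpgds in Microglia-like cells stood at 354, 424, 447 and 494 CPM in Pb F1, F2, M1 and M2, against 472, 425, 461 and 548 CPM in control F1, F2, M1 and M2, with a log2 fold change of -0.14 (SE 0.13). Ptgs1 stood at 439, 375, 443 and 503 CPM in the same Pb mice, against 434.5, 460.3, 465 and 394 CPM in the same control mice, with 0.02 (SE 0.13). Hpgd stood at 337, 356, 354 and 352 CPM in the same Pb mice, against 360.2, 384, 347 and 510.3 CPM in the same control mice, with -0.19 (SE 0.14). The groups overlapped for all 3 genes, and control M2 was the highest mouse for Hpgds and Hpgd.

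Ptgs2 was rare, with 628 UMIs in 5175 cells. Endothelial-like cells held 40.6% of these UMIs and Microglia-like cells 17.5%, but Pb M1 gave 207 of the 255 endothelial UMIs. Mouse by mouse, microglia held more than endothelium in Pb F1, F2 and M2 and in control F2 and M2. They held less in Pb M1 and in control F1 and M1. The median share over mice was 32.0% in microglia and 20.7% in endothelium. A Ptgs2 UMI was found in 22.9% of Fibroblast-like (thinned 5.71%), 15.8% of Perivascular macrophage-like (8.77%) and 14.1% of Smooth muscle-like cells (4.23%). The share was 5.65% in Endothelial-like (thinned 1.13%), 4.42% in Microglia-like (0.775%), 1.25% in Oligodendrocyte-like (0.157%) and 0.735% in Astrocyte-like cells (0.368%). In Endothelial-like cells Ptgs2 stood at 21.9, 2.15, 196 and 3.98 CPM in Pb F1, F2, M1 and M2, against 9.61, 11.9, 27.1 and 16.8 CPM in control F1, F2, M1 and M2. Pb M1 stood alone, and the other 3 Pb mice lay within or below the control range. In Pb M1, 12 of 168 Endothelial-like cells had a Ptgs2 UMI, 3 of them held 165 of the 207 UMIs, and 1 held 65. Without that cell the level was 137 CPM. The log2 fold change was 1.79 (SE 0.74), and -0.59 (SE 0.66) without Pb M1.

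Pb M1 was also the highest mouse for Ptgs2 in Microglia-like and Pericyte-like cells (36.0 CPM in pericytes, next Pb F2 at 8.95). The same held in cluster 12 (17.3 CPM, next Pb F2 at 11.8) and Oligodendrocyte-like cells (6.78 CPM, next control F2 at 1.07). Pericytes, cluster 12 and oligodendrocytes had only 32, 48 and 17 Ptgs2 UMIs. In Smooth muscle-like cells control M1 was higher (39.6 CPM in Pb M1, 58.9 CPM in control M1). In Oligodendrocyte precursor-like cells control F2 was higher (2.45 CPM in Pb M1, 17.6 CPM in control F2). In Microglia-like cells Ptgs2 stood at 17.2, 8.12, 26.4 and 11.6 CPM in Pb F1, F2, M1 and M2, against 2.86, 12.3, 6.84 and 14.0 CPM in control F1, F2, M1 and M2, with a log2 fold change of 0.68 (SE 0.41) and overlapping groups. Within microglia the inflammatory cluster 4 held 66 of 110 Ptgs2 UMIs, at 19.6 ± 12.6 CPM (SD, n = 8). Summed over mice, Perivascular macrophage-like cells had 161 CPM (exact Poisson interval 122 to 209) and Fibroblast-like cells 158 CPM (116 to 209). In both, 1 mouse, Pb M1, gave most UMIs, with 36 of 56 and 34 of 48. Smooth muscle-like cells averaged 24.1 ± 20.9 CPM (SD, n = 6), the only class level other than the endothelial one above that of microglia among classes with 3 mice, and the 1 SD ranges of neighbours in the order overlapped. In all cells the log2 fold change was 0.87 (SE 0.63), and -0.19 (SE 0.47) without Pb M1.

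Ptgs2 is itself an immediate early gene, so the sum of 11 other immediate early genes (Fos, Junb, Egr1 and others), which dissociation of tissue also induces, is set beside it. In Endothelial-like cells that sum was 13105, 15786, 14503 and 11630 CPM in Pb F1, F2, M1 and M2, against 17954, 18099.9, 18299 and 13911 CPM in control F1, F2, M1 and M2. The groups overlapped. All 11 genes had a log2 fold change below 0 there (median -0.37, against -0.01 over all genes). Pb M1, with most Ptgs2, was not high in this sum over its whole class. The sum does not give the level in the few cells that held most of its Ptgs2 UMIs. Of the 11 genes, 0 passed edgeR's test in endothelium, with 5 at an unadjusted p under 0.05 (275 of the 6828 genes fitted). DESeq2 and limma-voom gave 0 calls. The part of dissociation in the Ptgs2 values was not tested.

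**Figure D4:**
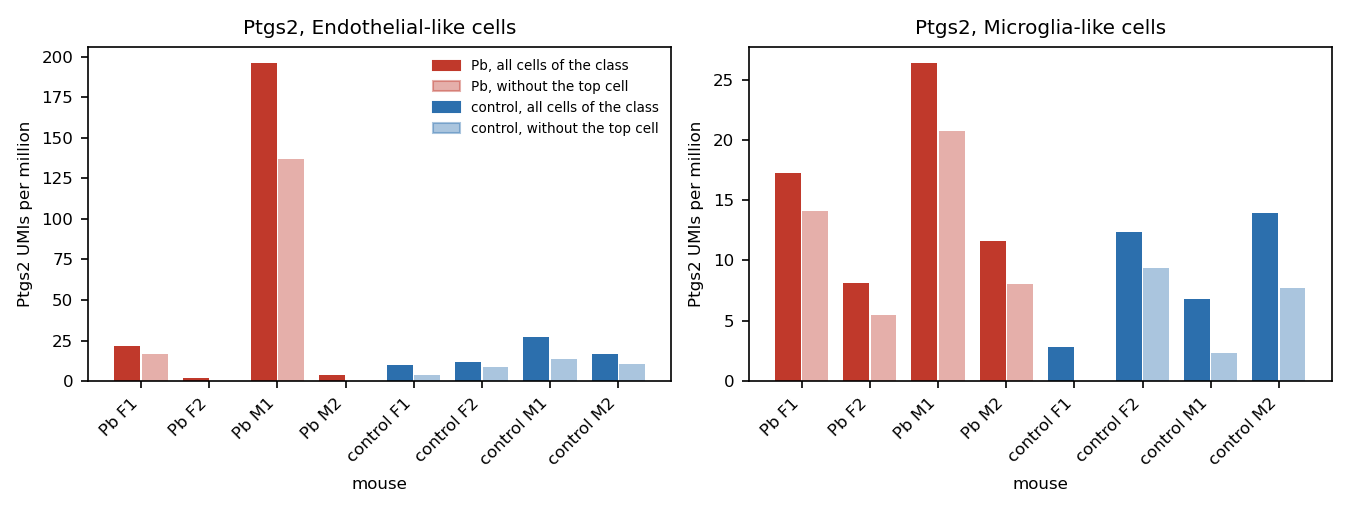
Ptgs2 level (CPM, vertical axis) in each mouse (horizontal axis, Pb to the left) in endothelial and microglial cells. Solid bars use all cells of the class and pale bars leave out the cell with most Ptgs2 UMIs. Pb M1 reaches 196 CPM in endothelium, and 137 CPM without its top cell.

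Ptges3 was found in all classes. Among the classes with at least 3 mice its mean level ran from 124 CPM in Choroid plexus-like to 200.1 ± 30.9 CPM (SD, n = 8) in Oligodendrocyte-like cells, with neighbours in the order within their SDs. Of the smaller classes, summed over mice, Fibroblast-like (164 CPM), Newly formed oligodendrocyte-like (193 CPM) and T or NK cell-like cells (140 CPM) lay inside this range. The others lay outside it. The 20 Ependymal-like cells, 13 of them from control M2, had 461 CPM (exact Poisson interval 337 to 614). Perivascular macrophage-like cells had 97.7 CPM (67.7 to 137) and B cell-like cells 118 CPM (51.1 to 233), with intervals that reach into the range. In all cells Ptges3 stood at 158, 161, 183 and 181 CPM in Pb F1, F2, M1 and M2, against 169, 122, 144 and 169.9 CPM in control F1, F2, M1 and M2. The groups overlapped, and log2 fold changes over the 9 cell groups lay between -0.00 and 0.26, with 0.15 (SE 0.13) in all cells. Since Ptges3 works with Hsp90, the sum of 7 genes of that chaperone system (Hsp90aa1, Hsp90ab1, Stip1 and others) was taken as well. It stood at 4647, 4369, 5475 and 5359 CPM in Pb F1, F2, M1 and M2, against 3897, 3099.6, 3457 and 3912 CPM in control F1, F2, M1 and M2. All Pb mice lay above all control mice in that sum. Of the 12989 single genes fitted in all cells, 2.37% separated in that way. All 7 genes had a log2 fold change above 0 in all cells (median 0.29, against -0.02 over all genes). Of the 7, 0 passed edgeR's test and 3 had an unadjusted p under 0.05 (622 of the 12989 genes fitted). DESeq2 called 1 of the 7 (29 of the 12989) and limma-voom 0. Ptges3 did not show the separation of that sum.

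**Figure D5:**
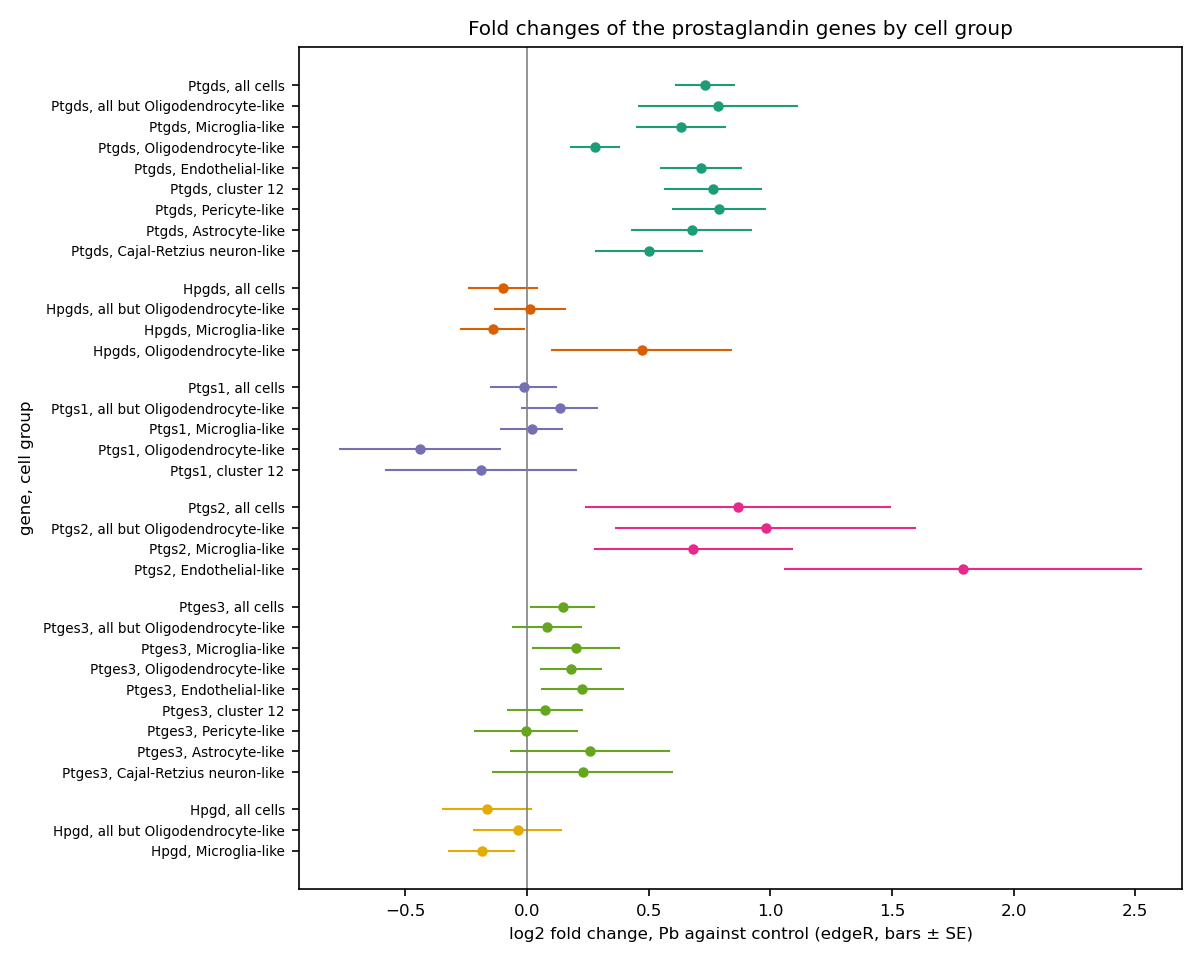
Log2 fold change of Pb against control mice (horizontal axis, edgeR with sex as a covariate, bars ± SE) for each gene and cell group with enough counts to be fitted. Ptgds lies above 0 in all 9 groups, lowest in oligodendrocytes at 0.28. Ptges3 runs from -0.00 to 0.26, Hpgd lies below 0 in its 3 groups, and Ptgs1 and Hpgds lie on both sides of 0.

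Low counts limited the fits: of 54 combinations of the 6 genes and 9 cell groups, 34 passed edgeR's filter. Ptgds and Ptges3 passed in all 9, Ptgs1 in 5, Hpgds and Ptgs2 in 4 each and Hpgd in 3. Ptgs2 counts in oligodendrocytes, astrocytes and neurons were 17, 2 and 1 UMIs, so a difference there was not detectable at this depth.

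Sex was not used to choose the genes and was tested. Over the 34 fits none of the genes differed between males and females by edgeR's quasi-likelihood test adjusted over all genes of a fit, and DESeq2 and limma-voom called 0 as well. At an unadjusted p under 0.05 there were 3: Ptgs2 in Endothelial-like cells, and Ptgds and Ptges3 in Oligodendrocyte-like cells. Over all genes, 271 of 6828 in the endothelial fit and 302 of 7972 in the oligodendrocyte fit had such a p by sex. Ptgs2 had a log2 fold change, male against female, of 2.42 (SE 0.74; edgeR adjusted p = 0.650) in endothelium, which holds the value of Pb M1. Ptgds in oligodendrocytes was lower in males, at -0.27 (SE 0.10; edgeR adjusted p = 1.00), with 11400.4, 14383, 11262 and 10895 CPM in the 4 males and 13921, 18177, 12704 and 12588 CPM in the 4 females. Ptges3 there was 0.28 (SE 0.13; edgeR adjusted p = 1.00). The same fits called by sex 0.0385% of all genes in all cells, 0.0394% in all but oligodendrocytes, 0.0616% in microglia, 0.0627% in oligodendrocytes and 0.0732% in endothelium. They called 0.0692% in cluster 12, 0.102% in pericytes, 0.287% in astrocytes and 0.1% in Cajal-Retzius neurons. The product of exposure and sex was tested in 31 fits of the genes, of which 0 passed and 0 had an unadjusted p under 0.05 (smallest edgeR adjusted p = 0.999), with 0 calls by DESeq2 and limma-voom; of all genes 0.031% were called in pericytes and 0% in the other groups. The intervals are wide: for Ptgds in all cells the difference between the sexes in the Pb effect was 0.12 (SE 0.27) on the log2 scale.

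The rest of the pathway was taken from 4 lists of 29 genes, 26 of which were in the table. Over the 9 cell groups, 90 gene tests of Pb against control gave 0 calls by edgeR's quasi-likelihood test, with 3 at an unadjusted p under 0.05, and 0 calls by DESeq2 and limma-voom. In all cells 21 genes were fitted and 7 had a log2 fold change above 0. The 3 unadjusted values were all of Fam213b (prostamide and prostaglandin F synthase), at -0.52 (SE 0.21) in all cells, -0.68 (SE 0.31) in Microglia-like and -0.72 (SE 0.24) in Oligodendrocyte-like cells. Over all genes, such a p was reached by 622 of 12989 in all cells, 354 of 8119 in microglia and 339 of 7972 in oligodendrocytes. By limma-voom, 0 of the other terminal synthases, Fam213b among them, reached it in all cells or in microglia, and 1 in oligodendrocytes. Of the genes that release arachidonic acid (5 fitted in all cells, 2 above 0), Mgll, which frees it from 2-arachidonoylglycerol, was highest in Astrocyte-like cells at 458 ± 137 CPM (SD, n = 6). Pla2g4a (cytosolic phospholipase A2) was highest in Microglia-like cells at 32.8 ± 8.80 CPM (SD, n = 8).

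Of the other terminal synthases (8 fitted, 3 above 0), Tbxas1 (thromboxane synthase) stood at 149.8 ± 20.6 CPM in Microglia-like cells (SD, n = 8), beside Ptgs1 and Hpgds. Ptges (the inducible prostaglandin E synthase) was highest in Pericyte-like cells at 42.8 ± 12.7 CPM (SD, n = 8) and Cbr1 (carbonyl reductase) in Cajal-Retzius neuron-like cells at 130.4 ± 42.3 CPM (SD, n = 6). Of the breakdown and transport genes (4 fitted, 1 above 0), Abcc4, which exports prostaglandins, was highest in Endothelial-like cells at 113 ± 21.2 CPM (SD, n = 8). Slco2a1, the importer that brings prostaglandins to Hpgd, had 65 UMIs in all.

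Receptors were sparse (4 fitted, 1 above 0). Tbxa2r (thromboxane receptor) was highest in Pericyte-like cells at 133 ± 37.5 CPM (SD, n = 8). The 2 receptors of prostaglandin D were nearly undetected, with 13 UMIs of Ptgdr and 3 of Ptgdr2 in 5175 cells. At this depth their levels and any difference were not measurable.

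Genes with the pattern most like each of the 6 were taken by Pearson's r across 9 named classes. The value correlated was log2 (mean CPM over mice + 5), among 11090 genes of at least 20 CPM in some class. The classes share libraries, and r is a description. For Ptgds these were Pigz (0.99), Pls1 (0.98) and Ccp110 (0.98). For Hpgds they were Lpxn (0.99), Ncf1 (0.99) and Ctss (0.99), for Ptgs1 Tlr7 (0.99), Lair1 (0.99) and Zfp710 (0.98), and for Hpgd Tgfbr1 (0.99), Crybb1 (0.99) and Vav1 (0.99). Those of the 3 microglial genes were all highest in Microglia-like cells and those of Ptgds in Oligodendrocyte-like cells. For Ptgs2, with Dtx3l (0.95), Igtp (0.94) and Rps6ka4 (0.94), and Ptges3, with Rnf113a2 (0.94), Actr8 (0.94) and Wdr45 (0.94), r was lower. The endothelial mean of Ptgs2 used here, 36.2 CPM, includes the 196 CPM of Pb M1.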

How the data were processed

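Hippocampi of saline-perfused mice were dissociated with an enzyme kit in a heated instrument, and the cell suspensions were cryopreserved before capture, per the labels' protocols. The authors deposited 1 table of raw UMI counts. Its 5258 cells each had at least 999 genes, and its genes were each in at least 3 cells. All columns were mapped to mice by name (0 left over). The submitters' processing notes name Cell Ranger, Seurat and mm10, with roles, versions and strand setting not given in the sources used here.

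Left out were cells over 20% mitochondrial UMIs (53) and Scrublet doublets (33 called, 0.628%; 30 of them among cells that passed the first filter). Cells were clustered in scanpy 1.11.5 without the prostaglandin pathway genes (2000 variable genes, 30 components, 15 neighbours, Leiden resolution 1), and clusters were named from at least 3 detected markers with a lead of 0.5 log2 over the next marker set. Rebuilt names may differ from those of the study. UMI counts summed per mouse and class, where at least 3 mice of each group had 10 cells, were fitted with edgeR 4.0.16 (R 4.3.3; TMM, filterByExpr, quasi-likelihood test, sex as a covariate, Benjamini-Hochberg at 0.05). Smooth muscle-like cells did not meet this. Intervals cover counting error only. The fits were tested on simulated data. Alternatives were DESeq2 1.42.0, limma-voom 3.58.1, other size factors, filters and clustering settings, single mice left out and a replicate block.

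The 6 genes, the lists and the contrast were chosen with earlier results of these data known. All 6 genes are described; others are the 3 most alike in pattern across classes, and pathway genes are given by level in the class where each is highest. Which pathway genes to print, Fam213b among them, was decided after their values were seen. The myelin ratios use 4 genes, and a further item of that list is not reported here.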

Additional observations from a re-analysis of the deposited data

Results flagged for a closer look

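Of the 60 groups of 4 mice examined for 1 value far from the other 3, 6 had one; chance alone gives this in about 1 in 20 groups, and these groups share cells and mice. Pb M1 was far above the other Pb mice for Ptgs2, at 196 CPM in Endothelial-like cells, 65.8 CPM in all cells but oligodendrocytes and 49.9 CPM in all cells. The same mouse was far below the other Pb mice for Ptgds in all cells, at 4372 CPM, and for Hpgd in all cells but oligodendrocytes, at 90.1 CPM. Control F2 was far above the other control mice for Ptgds in Endothelial-like cells, at 851 CPM. In Cajal-Retzius neuron-like cells Ptges3 was higher in Pb than in control females, by 0.96 on the log2 scale, and differed by -0.27 in males. That difference between the sexes was not tested, and it rests on 2 Pb females and 1 control female, and on 1 Pb male and 2 control males.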

How the results depend on the processing

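Of 631 alternative fold changes of the 6 genes (Pb against control), 39 changed sign, 17 of them of Ptges3, 10 of Ptgs1, 6 of Hpgds, 3 of Hpgd and 3 of Ptgs2, and 0 of 166 of Ptgds, whose log2 fold change ranged from 0.67 to 0.82 in all cells, 0.54 to 1.19 in all but oligodendrocytes, 0.17 to 0.37 in oligodendrocytes, 0.47 to 0.90 in microglia, 0.60 to 0.99 in endothelium, 0.58 to 1.13 in cluster 12, 0.65 to 1.07 in pericytes, 0.48 to 1.18 in astrocytes and 0.33 to 0.66 in Cajal-Retzius neurons. Counts of genes called moved more. DESeq2 called 29 genes in all cells and 1 each in oligodendrocytes, cluster 12 and pericytes, where edgeR called 0. Without a low-count filter edgeR called 60 in microglia, 25 in oligodendrocytes, 23 in endothelium, 33 in cluster 12, 18 in pericytes, 5 in astrocytes and 1 in Cajal-Retzius neurons. Leaving out 1 mouse gave 0 to 5 in microglia, 0 to 2 in oligodendrocytes, cluster 12 and pericytes, 0 to 3 in endothelium and 0 to 11 in astrocytes (11 without Pb M1). Without the sex term astrocytes had 0. With the replicate number as a block, astrocytes had 0 and Cajal-Retzius neurons 3, and no other count of calls changed. Ptgds was then 0.74 in all cells, 1.18 in astrocytes and 0.33 in Cajal-Retzius neurons. Deviations from the group means of same-numbered mice correlated at -0.52, -0.14, 0.09 and -0.28 (F1, F2, M1, M2). These values show no pairing by number, but with so few mice they cannot exclude it. Ptgs2 in endothelium was called by sex without a filter and without Pb M2 (0 to 1 of the 6 genes over mice left out). The causes were not tested. At Leiden resolution 0.5 Endothelial-like cells and cluster 12 were 1 cluster and pericytes were not fitted. With 4 mice per group and mice not tied to litters, small differences were not detectable, and Ptgs2 rests on few UMIs.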
